A study of Mus musculus with 6 samples.

Results

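The transcripts of enzymes that supply NADPH were followed in mouse embryonic fibroblasts (MEFs) with and without the histone variant H2AX. The group held 10 genes taken by symbol, with earlier results of these data known: G6pdx, Pgd, Taldo1 and Tkt of the pentose phosphate path, and Me1, Me2, Idh1, Idh2, Nnt and Nadk as the other sources. Of the 10 genes, 9 had a probe set that the array annotation tied to a single symbol, out of 19938 genes measured. No probe set carried G6pdx as its only symbol, so the first enzyme of the path is not analysed here. RNA came from 3 arrays of H2AX wild-type MEFs (WT) and 3 arrays of H2AX knockout MEFs (KO), all grown without treatment in serum-supplemented DMEM. The labels and methods used here name no strain, embryo or sex of the cells, and although the study calls the arrays of a genotype independent, it does not say whether they came from separate embryos or cultures. Any p-value below reflects the spread among these arrays alone.

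NADPH is the electron donor that keeps glutathione and thioredoxins reduced, and it also feeds the synthesis of fatty acids, sterols and deoxynucleotides. In the oxidative arm of the pentose phosphate path, glucose-6-phosphate dehydrogenase and 6-phosphogluconate dehydrogenase (Pgd) each pass electrons to NADP+, while transaldolase (Taldo1) and transketolase (Tkt) of the non-oxidative arm make no NADPH themselves and rearrange the sugars that leave it. Outside the path, cytosolic malic enzyme (Me1) and isocitrate dehydrogenase (Idh1) make NADPH in the cytosol, and Idh2 and the proton-driven transhydrogenase Nnt make it in mitochondria. The mitochondrial malic enzyme Me2 works mainly with NAD+, and NAD kinase (Nadk) makes the NADP+ on which the others depend.

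The values compared were the deposited log2 expression values of each gene's probe set, tested with limma over all genes, and a transcript is called higher or lower at a Benjamini-Hochberg adjusted p under 0.05. H2ax itself lay at log2 values of 8.96, 9.18 and 9.00 in WT and at 7.69, 7.77 and 7.67 in KO cells, lower on every KO array (limma adjusted p = 5.8e-07). Where its probes lie relative to the deletion is not given in the sources used here. The reference gene Actb differed by -0.04 on the log2 scale (adjusted p = 0.648), which turned to 0.015 after quantile normalization. The KO arrays also lacked most of the signal of the Y-linked genes Eif2s3y, Uty and Kdm5d, with log2 fold changes of -4.04, -3.73 and -2.88 (these genes were chosen after their values were known). The cells of the 2 genotypes thus differed in more than H2AX, and loss of H2AX and another origin of the cells cannot be told apart in any value below. Of 10 measured fibroblast markers, 5 were higher and 4 lower in KO cells, against 18.4% and 15% of all genes. The 4 lower ones were Fn1, Col3a1, P4hb and Col5a1, at log2 fold changes of -0.29, -0.28, -0.26 and -0.23. Vim (13.21 and 13.14 as log2 means of WT and KO) and Col1a1 (11.41 and 12.01) were high in both, whereas Thy1 rose 16.3-fold, from 6.57 to 10.60, and Pdgfrb rose 3.26-fold, from 8.80 to 10.50. Of 5 macrophage and leukocyte markers 1 was higher (Cd68), of 4 endothelial markers 1 was lower (Cdh5) and of 5 epithelial markers none passed the adjusted test (Cdh1 was higher by its unadjusted p of 0.0484). The summed linear signal of these lists was 206 to 230 in WT and 238 to 239 in KO for the leukocyte list, 118 to 130 and 106 to 120 for the endothelial list, and 279 to 286 and 265 to 303 for the epithelial list. Of these markers, Krt8 (6.98 and 6.82 as log2 means of WT and KO) and Cd68 (6.61 and 6.90) lay above the medians of the arrays, which were 6.06 to 6.12, and the others lay below them, with Ptprc, Adgre1, Pecam1 and Epcam between 4.28 and 5.22 in both genotypes. The part of these marker shifts in the results below was not tested, and fewer cells of a kind and less RNA per cell cannot be told apart.

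Several of these enzymes are textbook targets of NRF2, the transcription factor encoded by Nfe2l2, which binds antioxidant response elements, so the promoters were read for the core of that element, TGACNNNGC, on both strands. RefSeq promoter windows (assembly GRCm38.p6, from 250 bases before to 50 bases after a transcription start) were at hand for 8 of the 10 members, in 12 windows. The core occurred in 3 of the 12 windows, against 12.4% of 32851 windows of that length, and in 3 of 8 members, against 14% of genes. The stretches below show the matches at Me1 and at G6pdx, where the element reads on the opposite strand, and, for contrast, the match-free 250 bases before the start of Idh1, Taldo1 and Tkt, the members with the largest fall, the largest pentose phosphate fall and the largest rise in KO cells. Capitals mark the core of the element, and all are written 5′ to 3′ on the gene's own strand.
Me1 (chr9:86695912-86695974, minus strand): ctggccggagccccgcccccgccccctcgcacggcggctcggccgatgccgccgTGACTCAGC
G6pdx (chrX:74428900-74428970, minus strand): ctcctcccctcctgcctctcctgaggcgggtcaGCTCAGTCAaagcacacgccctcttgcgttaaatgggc
Idh1 (chr1:65186480-65186729, minus strand): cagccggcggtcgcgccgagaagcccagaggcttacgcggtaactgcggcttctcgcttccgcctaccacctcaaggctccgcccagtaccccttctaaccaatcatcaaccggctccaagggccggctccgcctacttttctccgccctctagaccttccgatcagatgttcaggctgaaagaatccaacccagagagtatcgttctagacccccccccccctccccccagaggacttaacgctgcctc
Taldo1 (chr7:141391910-141392159, plus strand): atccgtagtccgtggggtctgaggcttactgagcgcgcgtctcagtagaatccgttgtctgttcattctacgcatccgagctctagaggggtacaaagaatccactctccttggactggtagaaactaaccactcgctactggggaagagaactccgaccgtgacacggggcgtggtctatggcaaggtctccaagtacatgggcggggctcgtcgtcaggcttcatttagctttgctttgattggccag
Tkt (chr14:30548881-30549130, plus strand): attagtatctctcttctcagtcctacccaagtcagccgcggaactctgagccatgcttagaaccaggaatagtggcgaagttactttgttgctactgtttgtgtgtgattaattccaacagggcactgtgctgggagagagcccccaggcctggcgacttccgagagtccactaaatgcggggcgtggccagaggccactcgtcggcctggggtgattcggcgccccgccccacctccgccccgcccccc
Counted with the first transcribed base as 0, the Me1 match ran from -6 to 2 and the G6pdx match from -57 to -49. The third match was in the second window of Pgd, from 3 to 11, and read TGACATTGC. A match is a description of these letters only, and the other windows of Pgd and Me1 and all windows of Taldo1, Tkt, Idh1, Idh2 and Nadk held none.

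The NADPH enzymes moved in both directions in H2AX knockout cells. Of the 9 measured members, 4 were lower (Pgd, Taldo1, Idh1 and Nadk), 4 were higher (Tkt, Me1, Idh2 and Nnt), and Me2 did not pass the test. Over all genes, 33.4% were called in either direction, 18.4% higher and 15% lower, and among the 7444 genes at least as strong on the arrays as the weakest member, Taldo1, the share called was 54.5%. The changes were of moderate size: no member passed the fold-change of 2 used in the study's methods, which 5.3% of all genes passed (2.12% higher and 3.18% lower), and the median size of the 9 changes was 0.43 on the log2 scale, against 0.13 over all genes. For 8 of the 9 members the KO arrays did not overlap the WT arrays, as was so for 44.8% of all genes. Neither the median size nor this share was worked out for genes as strong as the members, so both comparisons include many weaker genes. The median signed log2 fold change was 0.17 for the members and 0.02 for all genes.

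**Figure D1:**
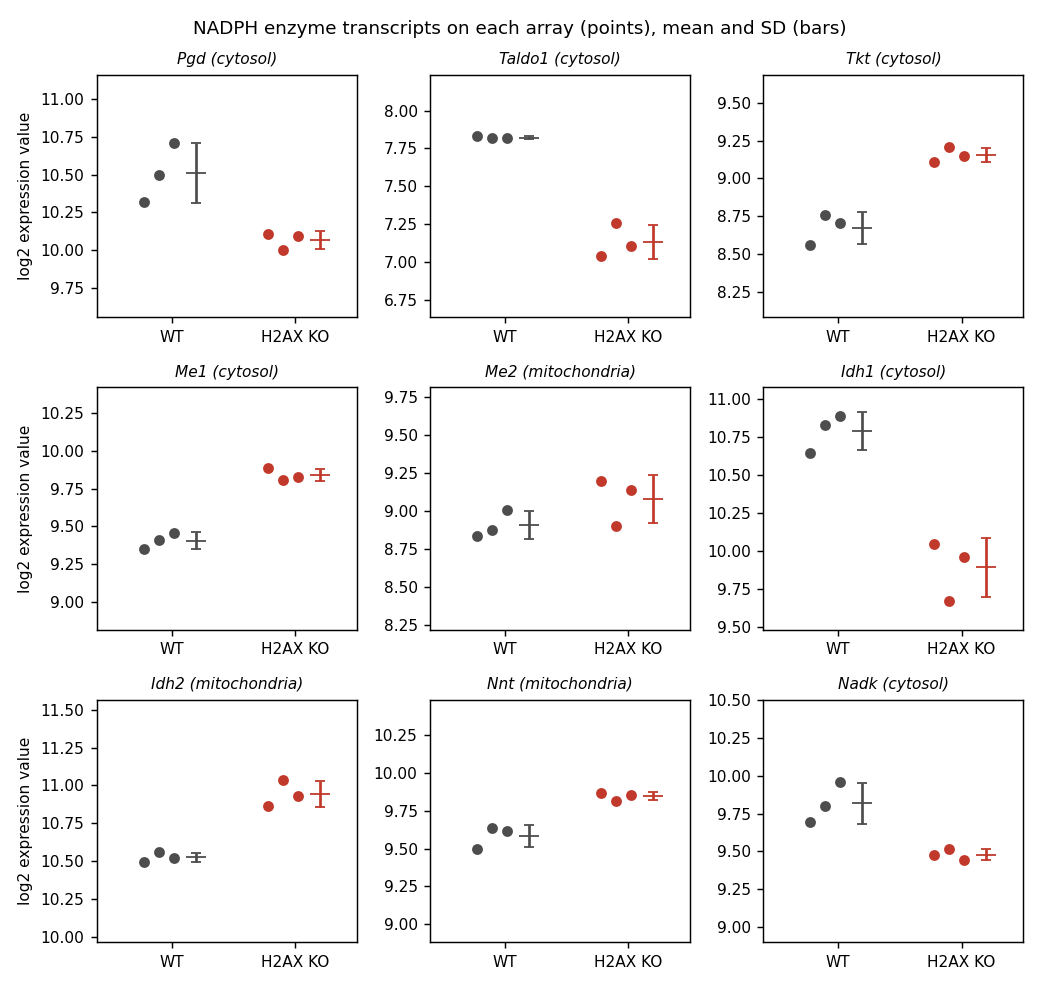
Log2 expression value (y axis, each panel spanning the same number of log2 units) of the 9 measured NADPH enzymes on each WT (grey) and H2AX KO (red) array, with mean and SD (n = 3) beside the points. KO points lie below all WT points for Pgd, Taldo1, Idh1 and Nadk and above them for Tkt, Me1, Idh2 and Nnt, and Me2 overlaps.

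Within the pentose phosphate path, the oxidative enzyme Pgd and the non-oxidative enzyme Taldo1 were lower in KO cells, and Tkt was higher. Pgd, the second NADPH-forming step, had log2 values of 10.32, 10.50 and 10.71 in WT and 10.11, 10.00 and 10.10 in KO cells. The WT arrays spread more widely than the KO arrays, and the lowest of them stood 0.22 above the highest KO array. The means were 10.51 ± 0.20 (SD, n = 3) and 10.07 ± 0.06 (SD, n = 3), a log2 fold change of -0.44 (limma standard error 0.10, adjusted p = 0.00525), which left 73.6% of the WT level. In the unmoderated analysis of variance that the study's methods name, Pgd had an adjusted p of 0.0719.

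Taldo1, transaldolase, had almost the same value on the 3 WT arrays, at 7.83, 7.82 and 7.82, and 7.04, 7.26 and 7.11 on the KO arrays. All KO values were lower, with a gap of 0.56 between the groups. The log2 fold change was -0.69 (limma standard error 0.07, adjusted p = 4.38e-05), or 62.0% of the WT level. Tkt, transketolase, which works beside transaldolase in the same sugar rearrangements, went the other way. Its log2 values were 8.56, 8.76 and 8.70 in WT and 9.11, 9.21 and 9.15 in KO cells, higher on every KO array. Its log2 fold change was 0.48 (limma standard error 0.07, adjusted p = 0.000544), a 1.39-fold rise.

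The other pentose phosphate genes, from a list of 11, also moved both ways: 3 lay higher in KO cells, 3 lay lower and the other 5 did not pass. The higher ones were Pgls, the lactonase between the oxidative steps (log2 fold change 0.40, limma adjusted p = 0.00327), Prps1, which carries ribose 5-phosphate on to nucleotide synthesis (0.39, adjusted p = 0.0307), and the ribose isomerase Rpia (0.38, adjusted p = 0.0101). The lower ones were G6pd2 (-0.40, limma adjusted p = 0.00166), the epimerase Rpe (-0.38, adjusted p = 0.0314) and H6pd, the NADPH-forming dehydrogenase of the endoplasmic reticulum (-0.28, adjusted p = 0.0153). Without single arrays, the calls of Prps1 (WT replicate 1 or 3, KO replicate 1 or 3), Rpe (replicate 2 or 3 of either genotype) and H6pd (replicate 3 of either) were lost, and the lower count was 1 without WT replicate 3 or KO replicate 3 and with the analysis of variance, which also left 1 higher gene. G6pd2 is a processed copy of G6pdx with a closely related sequence, and how far its probes tell the copy and G6pdx apart is not given in the sources used here, so its log2 values, 8.44, 8.53 and 8.60 in WT and 8.17, 8.17 and 8.03 in KO cells, are uncertain as to gene. The median log2 fold change was -0.44 for the 3 measured members of the path and 0.00 for the 11 other genes. Beside the counts of this list, 18.4% of all genes were called higher and 15% lower.

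**Figure D2:**
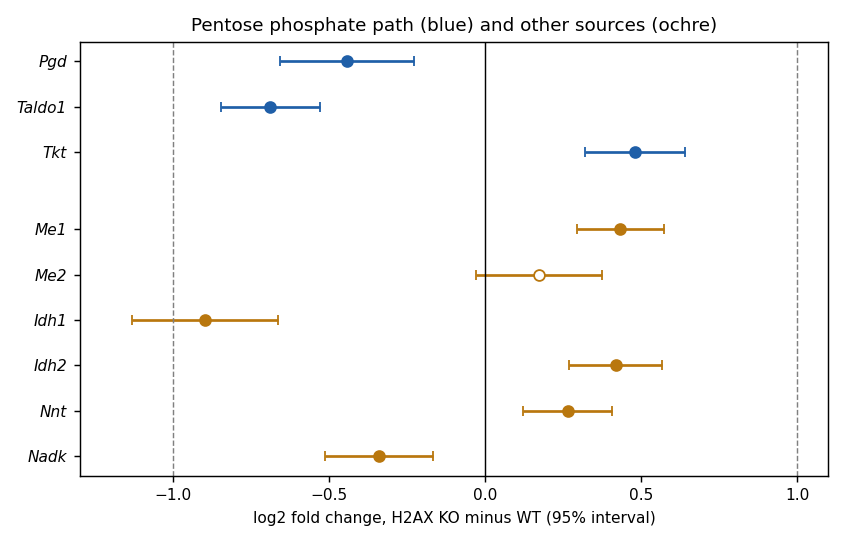
Log2 fold change (H2AX KO minus WT, x axis) of each measured NADPH enzyme with its 95% interval from limma, pentose phosphate members in blue and other sources in ochre. Filled points passed an adjusted p under 0.05 and the dashed lines stand at 1 and -1, and Idh1 at -0.90 and Tkt at 0.48 are the ends of the range, and only the interval of Me2 holds 0.

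Among the 6 other sources, 3 were higher and 2 were lower in KO cells, with a median log2 fold change of 0.22. This stands beside 1 higher and 2 lower among the 3 measured pentose phosphate members, a difference between the 2 sets that was described and not tested. Over all genes, 18.4% were called higher and 15% lower, and 54.5% of genes at least as strong as Taldo1 were called. The largest change of the group was that of Idh1, the cytosolic NADP+-dependent isocitrate dehydrogenase. Its log2 values were 10.65, 10.83 and 10.89 in WT and 10.05, 9.67 and 9.96 in KO cells. Every KO array lay lower, by at least 0.60. The log2 fold change was -0.90 (limma standard error 0.10, adjusted p = 0.000108), which left 53.7% of the WT level, and placed Idh1 at rank 1242 of all genes by size of change.

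Me1, the cytosolic malic enzyme, was higher in KO cells although Idh1, which makes NADPH in the same compartment, was lower. Its log2 values were 9.35, 9.41 and 9.46 in WT and 9.89, 9.81 and 9.83 in KO cells, with no overlap. The log2 fold change was 0.43 (limma standard error 0.06, adjusted p = 0.000432), a 1.35-fold rise. A second probe set annotated to Me1 gave a larger value, 0.50 on the log2 scale (limma standard error 0.06, adjusted p = 0.00123 over all probe sets). Whether that probe set reads Me1 alone was not examined. Nadk, the cytosolic NAD kinase, fell from 9.69, 9.80 and 9.96 in WT to 9.48, 9.52 and 9.44 in KO cells. Here the groups lay closer together, with a gap of 0.18, and the log2 fold change was -0.34 (limma standard error 0.08, adjusted p = 0.00691, and 0.0545 in the analysis of variance).

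The 3 mitochondrial members all had positive log2 fold changes, and 2 of them passed the test, as did 33.4% of all genes in either direction. Idh2, the mitochondrial counterpart of Idh1, had log2 values of 10.50, 10.56 and 10.52 in WT and 10.87, 11.04 and 10.93 in KO cells. All KO arrays were higher, and the log2 fold change was 0.42 (limma standard error 0.07, adjusted p = 0.000815), a 1.34-fold rise. The difference between Idh1 and Idh2 on the same array therefore changed by -1.32 log2 units from WT to KO cells, with SDs over arrays of 0.11 in WT and 0.28 in KO cells. Nnt, the transhydrogenase of the inner membrane, is known to carry a deletion in the C57BL/6J substrain. Its probe set gave clear signal here in both genotypes, at 9.50, 9.64 and 9.61 in WT and 9.87, 9.82 and 9.86 in KO cells. The position of the Nnt probes relative to that deletion is not given in the sources used here, so the signal does not tell which allele the cells carry. The KO values were higher without overlap, by 0.26 (limma standard error 0.06, adjusted p = 0.00974). Me2 had log2 values of 8.83, 8.87 and 9.01 in WT and 9.20, 8.90 and 9.14 in KO cells. KO replicate 2 lay among the WT arrays and the other two above them, so that the log2 fold change of 0.17 did not pass (95% interval -0.03 to 0.37, limma adjusted p = 0.186). Without KO replicate 2 it was 0.26 and passed (adjusted p = 0.0225).

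The remaining sources of NADPH and NADP+ were mostly higher in KO cells. Of a list of 9 further genes, 6 were higher and none was lower, with 7 higher and none lower by unadjusted p and 5 higher and none lower in the analysis of variance. The median log2 fold change was 0.48, against 0.02 over all genes, of which 18.4% were called higher and 15% lower. The largest rise was that of Aldh1l2, the mitochondrial 10-formyltetrahydrofolate dehydrogenase, which makes NADPH as it oxidizes a folate-bound carbon. It had log2 values of 8.80, 8.93 and 9.00 in WT and 10.33, 10.17 and 10.35 in KO cells, a 2.58-fold rise (log2 fold change 1.37, limma standard error 0.08, adjusted p = 6.08e-07). No other gene of this list passed a fold-change of 2.

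Nadk2, the mitochondrial NAD kinase, rose from 8.38, 8.42 and 8.45 to 9.49, 9.23 and 9.47, a 1.97-fold change (log2 fold change 0.98, limma adjusted p = 8.74e-06), whereas its cytosolic counterpart Nadk was lower. The difference between Nadk and Nadk2 on the same array changed by -1.32 log2 units, with SDs of 0.10 in WT and 0.18 in KO cells. Higher too were the mitochondrial folate enzymes Mthfd2 (0.65, limma adjusted p = 0.000111) and Mthfd1l (0.55, adjusted p = 0.000101), glutamate dehydrogenase Glud1 (0.48, adjusted p = 0.000834) and the third malic enzyme, Me3 (0.26, adjusted p = 0.0224). Me3 lay low on the array scale at a log2 mean of 5.34 in WT. Its call was lost without WT replicate 2 or 3 or KO replicate 1 or 2. The call was also lost with the replicate block, with the analysis of variance and with all probe sets tested. Cytosolic Mthfd1 changed by 0.10 on the log2 scale (limma adjusted p = 0.353), mitochondrial Mthfd2l of 0.23 (adjusted p = 0.0602) and cytosolic Aldh1l1, at a log2 mean of 4.93, of -0.07 (adjusted p = 0.488).

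Members and list together gave 10 genes of mitochondrial sources, of which 8 were higher and none lower (by unadjusted p, 9 higher and none lower), with log2 fold changes from 0.17 to 1.37. Over all genes, 18.4% were higher and 15% lower. Among genes at least as strong as Taldo1, a level that Me3 and Aldh1l1 did not reach, 54.5% were called in either direction. Of 8 measured genes of cytosolic sources, 2 were higher and 4 were lower, with a range of -0.90 to 0.48. Without Me2 and Mthfd1l, a folate ligase with no dehydrogenase activity, 7 of 8 mitochondrial genes were higher and none lower. These 8 still held Mthfd2 and Glud1, and how far each enzyme works with NADP+ rather than NAD+ was not examined. Without Taldo1 and Tkt, 1 of 6 cytosolic genes was higher and 3 were lower. The placing of the list genes by compartment was made after their values were seen, and the difference between compartments was not tested. With the analysis of variance the number of lower cytosolic genes was 2, and 1 without Taldo1 and Tkt. Among the NAD-linked isocitrate and malate dehydrogenases, 5 genes, the subunit gene Idh3g changed by 0.24 (limma adjusted p = 0.0107), Idh3b by -0.23 (adjusted p = 0.0408), and Idh3a, Mdh1 and Mdh2 did not pass. The Idh3b call was lost without WT replicate 2 or 3 or KO replicate 2 or 3, and the Idh3g call without KO replicate 3.

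**Figure D3:**
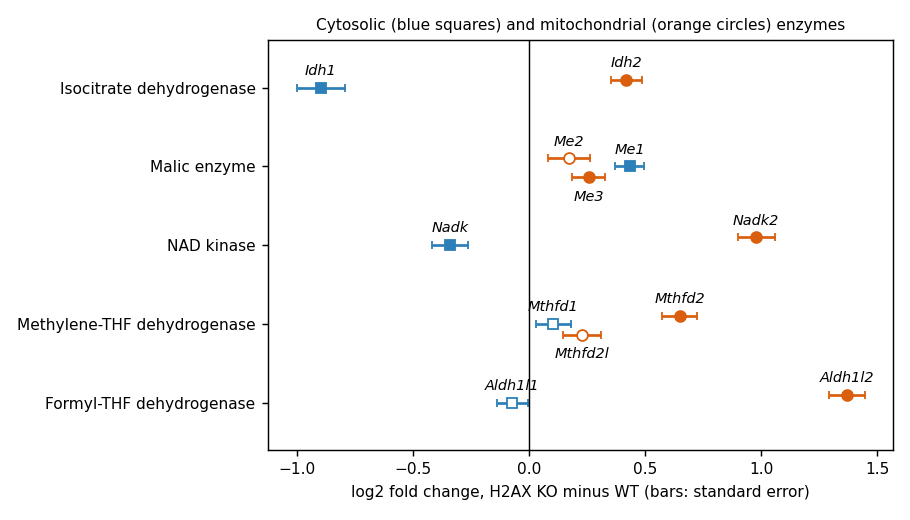
Log2 fold change (H2AX KO minus WT, x axis) of enzymes of the same type in the cytosol (blue squares) and in mitochondria (orange circles), 1 type per row. Bars are standard errors from limma, and filled symbols passed an adjusted p under 0.05. The cofactor can differ within a row, as Me2 works mainly with NAD+. For isocitrate dehydrogenase, NAD kinase and both folate reactions, the called mitochondrial gene lies to the right of the cytosolic one, and for malic enzyme Me1 lies to the right of Me2 and Me3.

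Upstream and downstream of the enzymes, changes were again mixed. Of 10 genes of NAD+ supply, 2 were lower and none was higher (by unadjusted p, 3 lower and 1 higher, and by the analysis of variance, 1 lower). The larger fall was that of Nnmt, which spends the NAD+ precursor nicotinamide by methylating it. Its log2 values were 8.99, 9.01 and 9.06 in WT and 6.22, 6.24 and 6.25 in KO cells, a 6.90-fold decrease (limma adjusted p = 9.2e-10). The other was Nmnat2 (log2 fold change -0.26, adjusted p = 0.0389), whose call was lost without WT replicate 2 or 3 or KO replicate 1 or 2. Of 16 measured NADPH-using enzymes in a list of 22, 5 were higher and 5 were lower. Gsr, which returns glutathione to its reduced form with NADPH, was higher by 0.55 on the log2 scale (limma adjusted p = 0.000696), as was the NADPH oxidase Nox4 at 0.93 (adjusted p = 5.48e-05). The lowest were the quinone reductase Nqo1 at -1.40 (adjusted p = 6.38e-07) and the aldo-keto reductase Akr1b8 at -0.98 (adjusted p = 1.08e-06). The count of higher users was 3 without WT replicate 1 or KO replicate 1 or 3 and 2 in the analysis of variance, which left 3 lower users. Beside the limma counts of both lists, 18.4% of all genes were called higher and 15% lower.

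**Figure D4:**
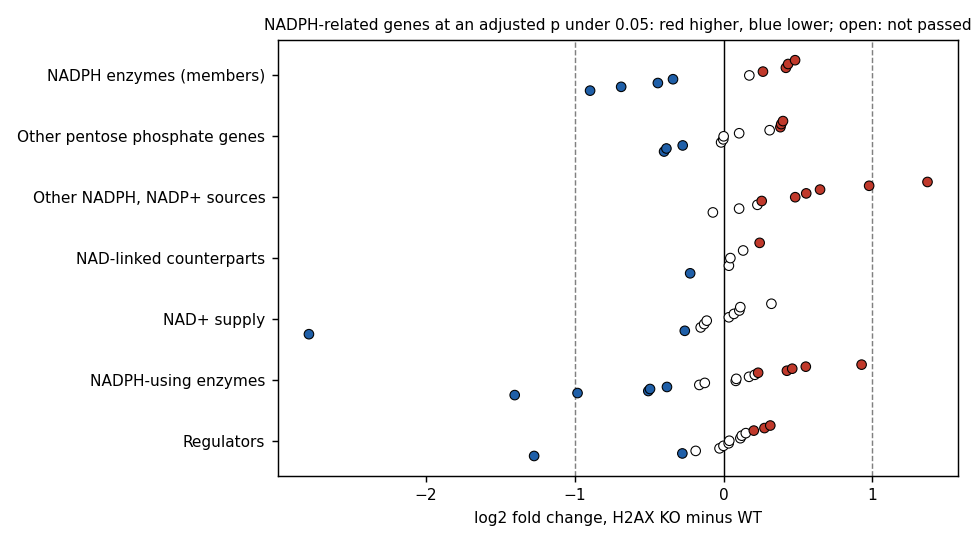
Log2 fold change (H2AX KO minus WT, x axis) of each measured gene, 1 point per gene, for the NADPH enzymes and 6 related lists; genes called higher are red, genes called lower are blue and the others are open, and the dashed lines stand at 1 and -1. The list of other NADPH and NADP+ sources has 6 red and no blue points, whereas the members have 4 of each; Nnmt is the point at -2.79.

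Of 13 measured regulators, 3 were higher and 2 were lower. Nfe2l2 was the largest change among them, at log2 values of 11.46, 11.53 and 11.57 in WT and 10.43, 10.05 and 10.26 in KO cells (log2 fold change -1.27, limma adjusted p = 4.06e-06), and Mafg, a small Maf partner of NRF2, was lower by a smaller amount (-0.28, adjusted p = 0.00636). Of the 5 measured members known as NRF2 targets, Pgd, Taldo1 and Idh1 were lower in KO cells, and Tkt and Me1 were higher. This grouping was added to the planned lists. Over all genes, 18.4% were called higher and 15% lower, and 54.5% of genes at least as strong as Taldo1 were called. How these changes relate to that of Nfe2l2 was not tested. The sterol and lipid regulators Srebf1 (0.31, adjusted p = 0.0235) and Srebf2 (0.27, adjusted p = 0.0472) were higher. The count of higher regulators was 1 without WT replicate 1, 2 or 3 or KO replicate 2 and none without KO replicate 3, with Srebf1 lost without WT replicate 3 or KO replicate 2 or 3 and Srebf2 without any one array but KO replicate 1. Me1, with the element core at its start, had a log2 fold change of 0.43. Pgd, with the core in its second window only, had one of -0.44. Whether these matches bear on the changes was not tested.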

How the data were processed

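RNA of 3 WT and 3 H2AX KO MEF samples was measured on Affymetrix Mouse Gene ST arrays, grouped by the titles. CHP files came from Affymetrix Expression Console, and the authors' normalization was run in Partek Genomics Suite (version 6.6). The deposited log2 values cover 35556 probe sets. How background was corrected and probes were summarized is not given in the sources used here, and array values compress low signals, which understates folds near the floor. The methods name the 2.0 ST array, whereas the identifiers are listed in an annotation of the 1.0 ST array, which served here. Among the probe sets, 21789 carried 1 symbol, 1621 several and 12146 were not listed. Symbols were updated through RefSeq gene identifiers (GRCm38.p6), and of several probe sets of a gene the one with the highest mean was kept. KO was compared with WT by lmFit and eBayes (limma 3.58.1, R 4.3.3) without covariates, with Benjamini-Hochberg adjustment over 19938 genes, and the fit was tested on simulated data. Alternatives were the replicate block, leaving out each array, the methods' one-way ANOVA, a trended robust variance prior, quantile normalization, median centring, a filter on low genes, means over probe sets, all probe sets and a fold of 1.5. The small number of arrays limits precision, and an exact permutation test of 3 against 3 cannot go below p = 0.1. Named genes were all members, H2ax, Actb, Nfe2l2, Nqo1 and the 2 largest rises and 2 largest falls called in each related list, and others were named after their values were seen. Members and lists were chosen with earlier results of these data known. No 2 arrays of a genotype shared more than 0.0872% of values.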

Additional observations from a re-analysis of the deposited data

How the results depend on the processing

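Directions of the 9 members were the same in all alternatives. The calls of Taldo1, Tkt, Me1, Idh1, Idh2 and Nnt held throughout, those of Pgd (-0.44) and Nadk (-0.34) were lost only in the one-way ANOVA, and Me2 passed only without KO replicate 2. Without each array in turn, the log2 fold change of Me2 was 0.11 to 0.26. The one-way ANOVA left 2 lower members, 1 of them in the pentose phosphate path and 1 among the other sources, 1 higher and 1 lower gene of the remaining pentose phosphate list, no lower NAD-linked gene, 1 lower gene of NAD+ supply, 2 higher and 3 lower NADPH users and 1 higher regulator. At a fold-change over 1.5 in place of 2, 2 of the 9 members passed, as did 11.9% of all genes. Replicate numbers did not pair the arrays, with correlations of the deviations of same-numbered arrays of -0.29, -0.24 and 0.08. With the replicate number as a block, 4 members were higher and 4 lower, no NAD-linked gene was lower (0), 3 NADPH users were higher, and the calls of Prps1, Rpe, Idh3b and Me3 were lost. Quantile normalization gave 1 higher and 1 lower gene of NAD+ supply, 1 higher regulator, and a log2 fold change of Actb of 0.015. Median centring gave 0 lower NAD-linked genes and 1 higher and 1 lower gene of NAD+ supply. With the lower 50% of genes by mean left out, 1 gene of NAD+ supply and 3 NADPH users were higher, and with all probe sets tested, 0 NAD-linked genes and 1 gene of NAD+ supply were lower, and 3 NADPH users and 0 regulators were higher. Without each array in turn, the count ranged from 1 to 3 for lower genes of the remaining pentose phosphate list, from 0 to 2 for higher and 0 to 1 for lower NAD-linked genes, from 0 to 1 for higher and 1 to 2 for lower genes of NAD+ supply, from 3 to 6 for higher NADPH users and from 0 to 2 for higher regulators. The causes of these shifts were not tested.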
